A study of Rattus norvegicus with 20 samples.

Results

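Genes that set which fast transmitter a neuron can load into its synaptic vesicles were followed in the brain and spinal cord of injured rats. The set was chosen by gene symbol and held Slc17a6, Slc17a7, Slc17a8, Slc32a1, Gad1 and Gad2, 6 of the 30443 genes listed. It came from 20 libraries of 4 adult female wild-type Long-Evans rats, 6 to 8 months old, which all carried a hemicontusion at cervical level 4 (0.7 mm displacement), an electrode array in the contralesional motor cortex placed 2 weeks after injury, and dexamethasone before that surgery. In 2 stimulated rats current was delivered for 1 week, 5 h per day, in 10 Hz trains of 5 min on and 2 min off at 80% of the threshold for forelimb movement, and 2 sham control rats were connected without current. The authors' methods give 5 days of stimulation, begun 3 weeks after injury. From each rat, 5 regions were dissected: white matter under the electrodes (region 1), its contralateral counterpart (region 2), and the cord above (region 3), at (region 4) and below (region 5) the lesion. RNA was sequenced after ribosomal depletion, and transcript levels are given in FPKM, fragments per kilobase of transcript scaled to the number of mapped reads. There was no uninjured and no unimplanted rat, so the values describe regions of injured animals and, within a region, 2 stimulated against 2 control animals.

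Glutamate enters synaptic vesicles through VGLUT1 (Slc17a7), VGLUT2 (Slc17a6) or VGLUT3 (Slc17a8). In the forebrain, Slc17a7 marks most cortical pyramidal neurons and Slc17a6 thalamic and many other subcortical neurons, whereas excitatory interneurons of the spinal cord use Slc17a6. GABA is made from glutamate by the decarboxylases GAD67 (Gad1) and GAD65 (Gad2). It is loaded into vesicles by VGAT (Slc32a1), which also loads glycine, so that glycinergic neurons of the cord need Slc32a1 without needing either decarboxylase.

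The regions were first compared with their labels. Although the dissection was described as white matter without cortex, cortical excitatory markers were present in all 8 samples of regions 1 and 2, with Tbr1, a transcription factor of cortical projection neurons, at 10.7 to 18.7 FPKM. Tbr1 did not exceed 0.105 FPKM in any cord library. Summed oligodendrocyte markers were lower in regions 1 and 2 (708 to 2943 FPKM) than in the cord (7403 to 10779 FPKM), where motor neuron markers summed to 38.3 to 117 FPKM against 1.72 to 3.21 FPKM. The libraries of regions 1 and 2 are therefore called white matter by their label only. In bulk tissue, fewer cells of a type and less RNA per cell cannot be told apart, and this holds for every level below.

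The bases before the transcription start of the vesicular glutamate transporters whose levels moved in opposite directions are shown with those of the decarboxylases, which moved together. Each sequence is 250 bases long, ends at the base before the start site, reads 5′ to 3′ and comes from RefSeq on GRCr8, a later build than that of the expression table. All 6 genes matched the promoter table. Capitals mark GGGCGG, the sequence of the GC box, or TATAAA, the sequence of the TATA box, on either strand and at any position. The cyclic AMP response element TGACGTCA was also searched and was in none of these windows.
Slc17a6, chr1:110348197-110348446, plus strand: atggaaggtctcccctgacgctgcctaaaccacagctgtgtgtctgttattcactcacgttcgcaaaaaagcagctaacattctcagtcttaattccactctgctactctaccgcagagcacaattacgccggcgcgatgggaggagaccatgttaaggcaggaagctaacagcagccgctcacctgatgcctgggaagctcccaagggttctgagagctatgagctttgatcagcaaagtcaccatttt
Slc17a7, chr1:104785955-104786204, plus strand: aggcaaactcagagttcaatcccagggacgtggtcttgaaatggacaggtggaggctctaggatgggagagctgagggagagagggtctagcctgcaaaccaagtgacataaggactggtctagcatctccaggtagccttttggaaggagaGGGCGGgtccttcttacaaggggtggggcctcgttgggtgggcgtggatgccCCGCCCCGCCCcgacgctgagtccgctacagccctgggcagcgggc
Gad1, chr3:75777202-75777451, plus strand: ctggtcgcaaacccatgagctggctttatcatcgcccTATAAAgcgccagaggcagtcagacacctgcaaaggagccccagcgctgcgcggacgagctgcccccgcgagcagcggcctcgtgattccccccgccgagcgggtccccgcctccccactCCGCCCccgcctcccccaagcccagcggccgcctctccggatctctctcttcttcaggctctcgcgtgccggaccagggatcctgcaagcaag
Gad2, chr17:89671468-89671717, plus strand: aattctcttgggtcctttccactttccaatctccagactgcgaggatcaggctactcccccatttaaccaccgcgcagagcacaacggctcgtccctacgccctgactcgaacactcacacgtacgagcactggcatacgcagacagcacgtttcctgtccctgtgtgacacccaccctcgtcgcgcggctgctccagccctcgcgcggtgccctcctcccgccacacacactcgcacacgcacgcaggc
The Slc17a7 window held 3 GC boxes, of which the last pair share a base, and the Gad1 window held 1 GC box and 1 TATAAA. The TATAAA of Gad1 lay near the 5′ end of its window, far from the start site. Neither GGGCGG nor TATAAA was in the Slc17a6 and Gad2 windows. Of 33469 windows of this length, 30.5% held GGGCGG, 12.9% held TATAAA and 1.59% held TGACGTCA, in either orientation. The GC content was 50.8% for Slc17a6, 61.2% for Slc17a7, 68.4% for Gad1 and 62.0% for Gad2, with a median of 51.2% over all windows.

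Slc17a7 and Slc17a6 changed places between brain and cord. Slc17a7 was measured at 317 and 329 FPKM in region 1 of control animals 1 and 2 and at 255 and 225 FPKM in stimulated animals 1 and 2. In region 2 it was at 272 and 245 FPKM in the controls and at 277 and 267 FPKM in the stimulated animals. It exceeded 99.6% of the 15210 genes that reached 1 FPKM in any library, by its mean over regions 1 and 2. In the cord its levels were low: 0.974, 11.8, 2.78 and 0.689 FPKM in region 3, given as control 1, control 2, stimulated 1 and stimulated 2. In the same order, region 4 held 0.318, 0.464, 0.389 and 0.623 FPKM and region 5 held 0.977, 0.729, 2.13 and 2.45 FPKM. No cord library reached the lowest white matter library, and control animal 2 in region 3 stood above the other 11 cord libraries. The geometric mean was 248-fold higher in white matter (log2 difference 7.95 ± 0.39 SE; adjusted p = 8.39e-13, limma, Benjamini-Hochberg over all genes), and the log2 difference within an animal lay between 7.48 and 8.77.

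Slc17a6 had the opposite pattern. It was at 1.83, 1.63, 1.12 and 1.66 FPKM in region 1 and at 3.47, 3.45, 3.06 and 2.52 FPKM in region 2, in the order control 1, control 2, stimulated 1 and stimulated 2. In region 3 it was at 31.6, 45.0, 35.8 and 34.3 FPKM, in region 4 at 17.6, 17.9, 22.9 and 18.3 FPKM and in region 5 at 26.4, 25.3, 24.02 and 26.0 FPKM. Every cord library was above every white matter library. The geometric mean was 11.9-fold higher in the cord (log2 difference of white matter minus cord -3.58 ± 0.09 SE; adjusted p = 8.35e-17, limma).

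**Figure D1:**
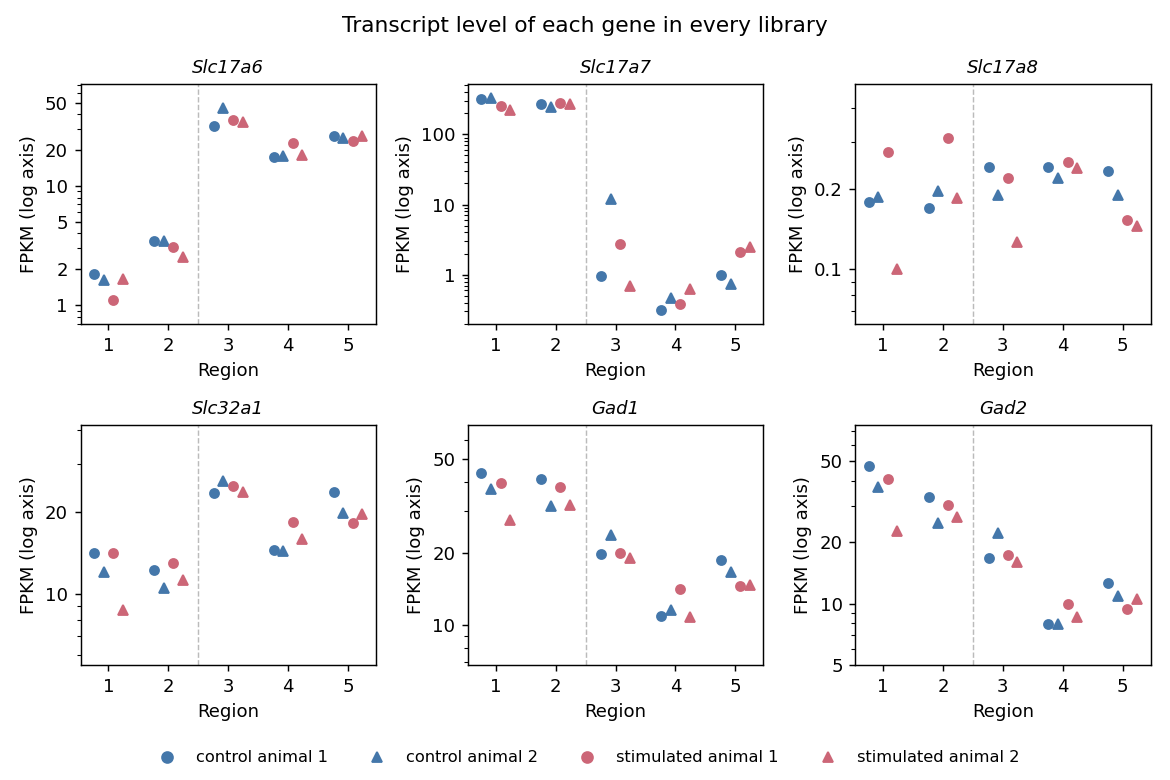
Level of each gene in FPKM (log axis, with its own range in each panel) in the 4 libraries of each region; circles and triangles are animals 1 and 2, colors are control and stimulated, and the dashed line separates white matter (regions 1 and 2) from cord (regions 3 to 5). Slc17a7 fell from 225 to 329 FPKM in white matter to at most 11.8 FPKM in the cord, whereas Slc17a6 rose from at most 3.47 FPKM to at least 17.6 FPKM.

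Slc17a8, the transporter of scattered cholinergic, serotonergic and other neurons, was close to the lowest value the table can hold. It lay between 0.1 and 0.310 FPKM over the 20 libraries, with means of 0.200 ± 0.0650 FPKM (SD, n = 8) in white matter and 0.204 ± 0.0429 FPKM (SD, n = 12) in the cord. Because it reached 1 FPKM in no library it was not tested with the other genes, which left 5 of 6 members. In the fit without a filter its log2 difference of white matter minus cord was -0.07 ± 0.18 SE (adjusted p = 1, limma), so that no difference was detectable at this level.

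Within a library, the share of each transporter in the summed FPKM of the 3 genes does not depend on scaling between libraries. The Slc17a7 share was 98.5 to 99.5% in white matter, and the Slc17a6 share was 79.0 to 97.7% in the cord. The lowest Slc17a6 share in the cord was again that of control animal 2 in region 3, where Slc17a7 made up 20.7%, against 1.96 to 7.16% in the other 3 animals. Region 4 had a Slc17a7 share of 1.65 to 3.26%. In region 5 the stimulated animals had 8.11 and 8.57% and the controls 3.54 and 2.78%. Between white matter and cord the mean Slc17a7 share differed by 93.7 percentage points and the mean Slc17a6 share by -92.9 points, each with adjusted p = 0.000167 (two-sided exact permutation of regions within animals, 10000 arrangements, p adjusted over the 5 shares and ratios examined). The unadjusted p of 0.0001 is the smallest these arrangements can give. Slc17a8 made up 0.0441 to 0.110% in white matter and 0.334 to 1.33% in the cord (difference -0.72 points; exact permutation adjusted p = 0.000375). As its levels did not differ detectably, this difference reflects the sum it is divided by. The 3 shares add up to the whole in each library, so their tests are not independent.

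**Figure D2:**
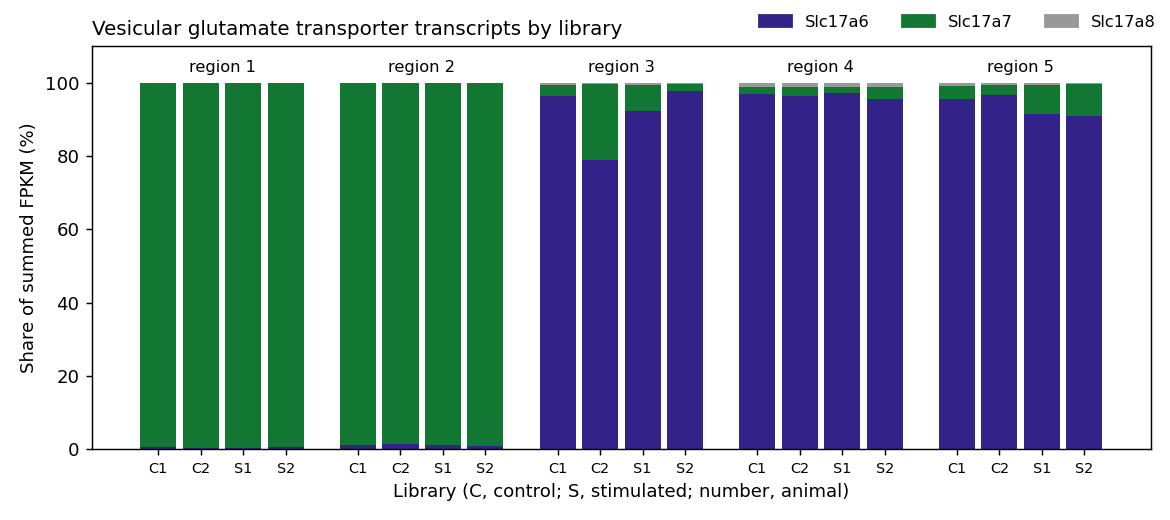
Share of Slc17a6, Slc17a7 and Slc17a8 in the summed FPKM of the 3 genes (stacked bars, percent) in each of the 20 libraries, ordered by region, group and animal. Slc17a7 fills at least 98.5% of every white matter bar and Slc17a6 at least 79.0% of every cord bar.

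The decarboxylases were higher in white matter and their partner transporter was higher in the cord. Gad1 was at 27.7 to 43.3 FPKM in white matter (median 37.7) and at 10.8 to 23.8 FPKM in the cord (median 15.7). Gad2 was at 22.8 to 47.1 FPKM (median 32.1) against 7.97 to 22.3 FPKM (median 10.8). The white matter libraries did not overlap with the cord libraries for either gene. Gad1 was 2.28-fold higher (log2 difference 1.19 ± 0.09 SE; adjusted p = 3.26e-10, limma) and Gad2 was 2.71-fold higher (1.44 ± 0.11 SE; adjusted p = 9.21e-10, limma). Slc32a1 was at 8.77 to 14.1 FPKM in white matter (median 12.1) and at 14.3 to 26.0 FPKM in the cord (median 19.7). It too did not overlap, and its geometric mean was 1.67-fold higher in the cord (log2 difference -0.74 ± 0.08 SE; adjusted p = 1.90e-07, limma).

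All 5 members tested passed the threshold between white matter and cord, 3 higher and 2 lower. Of all genes tested, 72.2% passed it, 25% higher and 47.1% lower, so that most genes differed between these tissues and the count of members called has to be read against that share. Lack of overlap was less common among all genes: 10.3% lay above and 16.8% below in every white matter library. The median log2 difference was 1.19 over the members tested and -0.18 over all genes. The 5 directions were the same in all 4 animals.

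Ratios set the genes of GABA neurons against each other within a library. The log2 ratio of Slc32a1 to the summed Gad1 and Gad2 was -2.68 to -2.38 in white matter and -0.82 to -0.29 in the cord, without overlap. The means differed by -2.04 (exact permutation adjusted p = 0.000167). In other words, 1 FPKM of decarboxylase came with 0.156 to 0.192 FPKM of Slc32a1 in white matter and with 0.565 to 0.817 FPKM in the cord. The log2 ratio of Gad1 to Gad2 overlapped between the tissues. In region 1 it was -0.12, -0.01 and -0.05 in control 1, control 2 and stimulated 1 but 0.28 in stimulated 2, and in region 2 it was 0.27 to 0.35. In the cord it was 0.09 to 0.25 in region 3, 0.34 to 0.53 in region 4 and 0.47 to 0.63 in region 5. The mean of white matter was lower by -0.25 (exact permutation adjusted p = 0.0173), a call lost without control animal 1 (p = 0.069) and without stimulated animal 1 (p = 0.059). Gad1 exceeded Gad2 in all 12 cord libraries and in 5 of 8 white matter libraries.

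**Figure D3:**
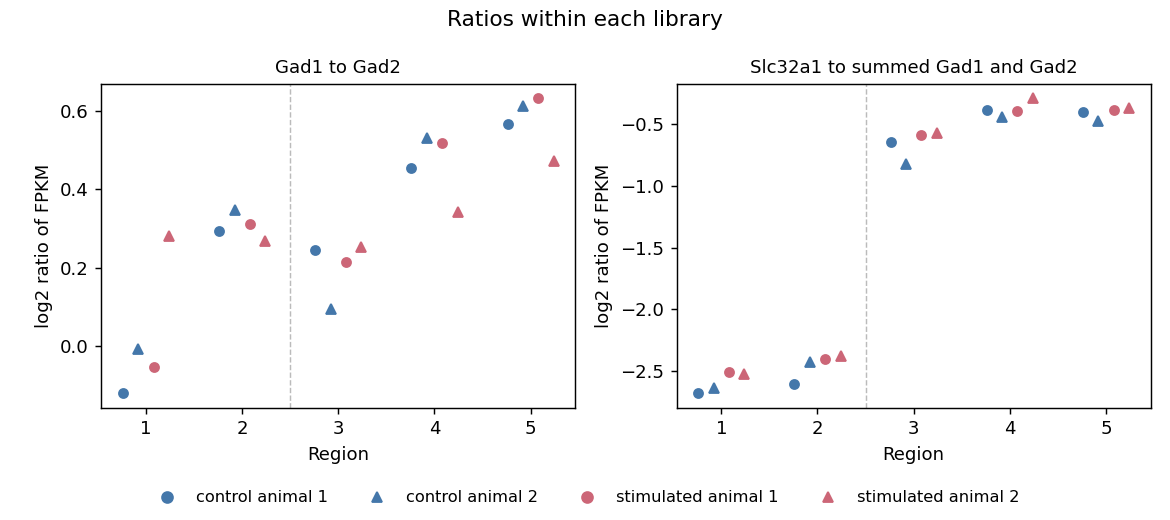
Log2 ratio of Gad1 to Gad2 (left) and of Slc32a1 to summed Gad1 and Gad2 (right) in each library by region; symbols and colors are as in the plot of levels and the dashed line separates white matter from cord. The right panel splits into -2.68 to -2.38 and -0.82 to -0.29, and the left panel overlaps.

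Genes that handle the same transmitters did not all move with the members. Of 8 genes for GABA and glycine uptake and breakdown, 7 were lower in white matter and none higher (median log2 difference -1.47). They included Slc6a5, the glycine transporter of glycinergic terminals (-5.76 ± 0.23 SE), and Slc6a9, the glial glycine transporter (-2.95 ± 0.09 SE). These are opposite in sign to Gad1 and Gad2 and equal in sign to Slc32a1. Of 11 genes for glutamate supply and uptake, 4 were higher and 3 lower (median 0.02), with the astrocyte transporter Slc1a3 at 1.44 ± 0.07 SE on the log2 scale. Of 15 genes of vesicle release in the table, 10 were higher and 4 lower (median 0.60), and here paralogs split: Syt1 and Vamp2 were higher in white matter (3.41 and 1.79 log2) and Syt2 and Vamp1 lower (-2.40 and -2.26 log2). Of the other transporters of the SLC17 and SLC18 families, 3 of 8 in the table were kept. Slc17a5, a sialic acid carrier of lysosomes, was higher (0.19) and Slc17a9, a nucleotide carrier, and Slc18a2, the monoamine carrier, were lower (-0.93 and -0.39).

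Markers of neuron classes moved beside the members. All 6 cortical excitatory markers kept were higher in white matter (summed 66.2 to 111 FPKM against 7.56 to 16.2 FPKM), and Emx1 and Fezf2 were at the floor of 0.1 FPKM in all cord libraries. Forebrain GABA interneuron markers were higher for 4 of 6 kept, striatal projection neuron markers for 5 of 7 with 1 lower, and cerebellar granule markers for 1 of 3 with 2 lower. All 4 spinal inhibitory markers, the only spinal excitatory marker and all 4 motor neuron markers kept were lower, as were all 6 oligodendrocyte, all 5 astrocyte and all 4 Schwann cell markers, 5 of 7 sensory ganglion markers and 4 of 6 microglia markers. Pan-neuronal markers were balanced, with 3 of 7 higher, 2 lower and a median log2 difference of -0.08. With each library centred on the pan-neuronal list, the 5 members kept their directions and calls (Slc17a6 -3.81, Slc17a7 7.72, Slc32a1 -0.97, Gad1 0.96 and Gad2 1.20 log2). The part of cell composition in these differences was not tested.

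Under the electrodes, Slc17a6 was the only member that differed from the other hemisphere. Its levels of 1.12 to 1.83 FPKM in region 1 lay below the 2.52 to 3.47 FPKM of region 2, and region 1 was lower in all 4 animals. Of all genes, 3.16% lay below without overlap. The geometric mean was 2.02-fold lower (log2 difference -1.02 ± 0.14 SE; adjusted p = 0.000961, limma). Of all genes tested, 1.76% were lower and 6.86% higher in region 1, 8.61% in all. The other 4 members tested did not pass, with log2 differences of 0.07 (95% interval -1.18 to 1.32) for Slc17a7, 0.04 (-0.23 to 0.31) for Slc32a1, 0.04 (-0.24 to 0.32) for Gad1 and 0.32 (-0.04 to 0.68) for Gad2. The glial content also differed: 5 of 6 oligodendrocyte markers were higher in region 1, with sums of 1512 to 2943 FPKM against 708 to 1391 FPKM. The part of tissue composition in the Slc17a6 difference was not tested. Without the region 2 library of stimulated animal 2, which was high in microglia markers, it was -1.12 (adjusted p = 4.18e-05, limma). With libraries centred on the pan-neuronal list, Slc17a6 remained lower (-0.90, adjusted p = 0.000860, limma) and Gad2 passed the threshold as higher (0.43, adjusted p = 0.0177, limma), as it did without stimulated animal 2 (0.50, adjusted p = 0.0312, limma).

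At the lesion, transcripts of all 5 members tested were lower than in the cord above it. Every region 3 library exceeded every region 4 library for each of them, which held in this direction for 15.7% of all genes. Gad2 fell from 16.8, 22.3, 17.3 and 16.0 FPKM in region 3 to 7.97, 7.98, 9.92 and 8.55 FPKM in region 4, in the order control 1, control 2, stimulated 1 and stimulated 2. Gad1 fell from 19.9, 23.8, 20.1 and 19.0 FPKM to 10.9, 11.5, 14.2 and 10.8 FPKM in the same order. Both decarboxylases were thus lower at the lesion in all 4 animals. Slc32a1 fell from 23.5, 26.0, 24.8 and 23.6 FPKM to 14.4, 14.3, 18.3 and 15.8 FPKM. The log2 differences of region 3 minus region 4 were 1.06 ± 0.17 (SE) for Gad2, 0.93 ± 0.14 for Slc17a6, 0.81 ± 0.13 for Gad1 and 0.64 ± 0.13 for Slc32a1, with adjusted p (limma) of 0.000581, 0.000412, 0.000656 and 0.00231. For Slc17a7 the log2 difference was 2.32 ± 0.60 SE (adjusted p = 0.0121, limma). All 5 passed, against 12.8% of all genes higher and 6.78% lower in region 3 (19.6% in all), and the median log2 difference was 0.93 over the members tested and 0.02 over all genes.

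Some other neuronal lists, but not all, were also lower at the lesion. Pan-neuronal markers were higher in region 3 for 5 of 7 genes (median 0.38), vesicle release genes for 12 of 15 (median 0.63), and spinal inhibitory markers for 3 of 4 (median 0.80), whereas 3 of 6 microglia and all 4 Schwann cell markers were lower. The only spinal excitatory marker kept was also higher in region 3 (1.27), as were 2 of 3 cerebellar granule markers (median 0.79). Forebrain GABA interneuron markers were higher for 3 of 6 (median 0.28) and cortical excitatory markers for 2 of 6 (median 0.04). No motor neuron (0 of 4, median -0.38), sensory ganglion (0 of 7, median 0.13) or striatal marker (0 of 7, median 0.39) passed, and motor neuron markers summed to 38.3 to 45.5 FPKM in region 3 and 48.1 to 63.1 FPKM in region 4. Relative to the pan-neuronal list the members were still higher in region 3, by 0.65 for Gad2, 0.52 for Slc17a6, 0.40 for Gad1, 0.23 for Slc32a1 and 1.91 for Slc17a7 (log2), and all 5 passed (limma), while the median over all genes became -0.39. The Slc17a7 value leaned on control animal 2 in region 3: without that library it was 1.501 (adjusted p = 0.0306, limma), and without this animal altogether it was 1.53 and did not pass (adjusted p = 0.0789, limma). It also did not pass without control animal 1 or stimulated animal 1 (adjusted p = 0.0552 and 0.103, limma), nor when tested on differences within animals (adjusted p = 0.0711, limma). Slc32a1 did not pass without control animal 2 (0.57, adjusted p = 0.0778, limma).

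The region 3 library of control animal 2 differed from the others in more than Slc17a7. Its pan-neuronal markers summed to 845 FPKM against 692 to 727 FPKM in the other 3 region 3 libraries, cortical excitatory markers to 16.2 FPKM against 12.1 to 12.8 FPKM, and cerebellar granule markers to 21.0 FPKM against 14.8 to 16.7 FPKM. Of those lists, Slc30a3 (13.3 FPKM), Neurod6 (2.44 FPKM), Zic1 (7.74 FPKM), Cbln1 (12.3 FPKM), Cbln3 (0.317 FPKM), Neurod1 (0.273 FPKM), Barhl1 (0.144 FPKM) and Tbr1 (0.105 FPKM) were higher in it than in any other cord library, while Emx1, Fezf2 and Gabra6 were at the floor. The part of these in its Slc17a7 level was not tested.

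Below the lesion, members lay between those of the other cord regions or near them. Gad1 was the only member that passed between regions 4 and 5 (log2 difference -0.45 ± 0.13 SE; adjusted p = 0.0473, limma), against 7.06% of all genes lower in region 4 and 7.99% in either direction. Pan-neuronal markers were lower in region 4 for 5 of 7 genes (median -0.48, and -0.14 over all genes), and with libraries centred on them Gad1 was 0.05 higher and did not pass (adjusted p = 0.642, limma). Gad1 was also not called after quantile or upper-quartile scaling, without a filter, with eBayes without trend or on differences within animals. Nor was it called without control animal 1, control animal 2 or stimulated animal 2. The call held in 5 of 16 alternatives. Between regions 3 and 5, Slc17a6 (0.52 ± 0.14 SE; adjusted p = 0.0480) and Gad2 (0.73 ± 0.17 SE; adjusted p = 0.0234) passed in limma, against 1.55% of all genes higher and 2.77% lower in region 3 (4.32% in all). Neither passed without control animal 1, control animal 2, stimulated animal 1 or the region 3 library of control animal 2, and Slc17a6 also did not pass without stimulated animal 2. The Gad1, Gad2 and Slc17a6 levels of region 3 nonetheless lay above those of region 5 without overlap, as did 5.02% of all genes. Slc17a7 was 0.64 higher in region 3 (95% interval -0.61 to 1.90), and -0.17 without the library that stood apart.

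**Figure D4:**
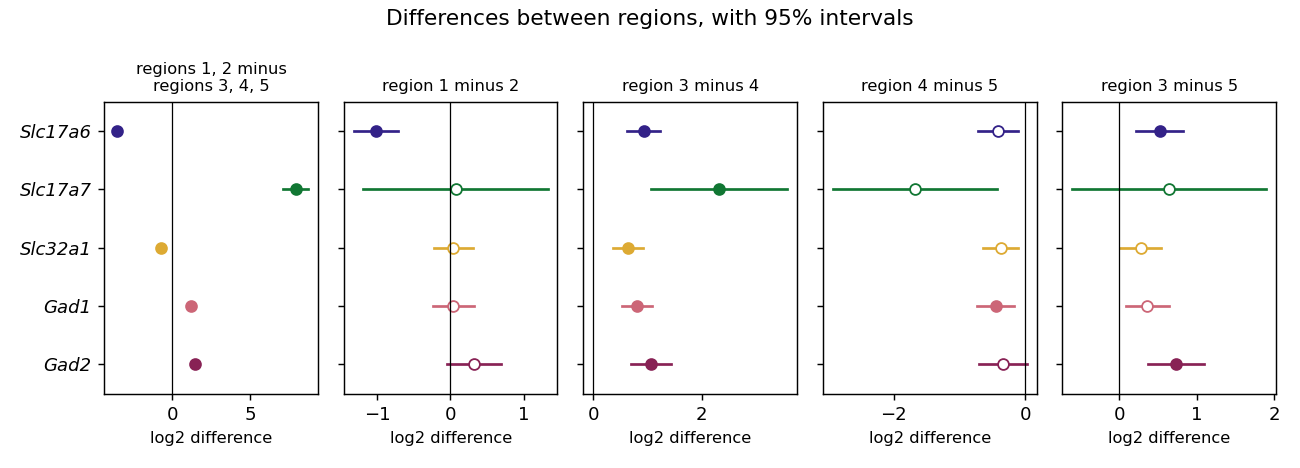
Log2 difference in FPKM between regions for the 5 members tested (x axis, with its own range in each panel; points, limma estimates; lines, 95% intervals; filled points, adjusted p under 0.05). All 5 members are filled for white matter minus cord and for region 3 minus region 4, and Slc17a6 is the only filled point for region 1 minus region 2.

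From highest to lowest mean, the 5 regions ranked 3, 5, 4, 2 and 1 for Slc17a6, and of these neighbors only regions 5 and 4 did not pass (adjusted p = 0.0727, limma). Slc17a7 ranked 1, 2, 3, 5 and 4, and only the step between regions 2 and 3 passed. Slc32a1 ranked 3, 5, 4, 1 and 2, and only regions 4 and 1 passed as neighbors (0.38 ± 0.13 SE; adjusted p = 0.0186, limma). Gad1 and Gad2 both ranked 1, 2, 3, 5 and 4, and for both genes the step between regions 2 and 3 passed and that between regions 1 and 2 did not. The step from region 5 to 4 also passed for Gad1, and that from region 3 to 5 for Gad2. Of all genes, 56.8% passed between regions 2 and 3, 66.6% between regions 2 and 4 and 52.6% between regions 1 and 4. Slc32a1 had region 4 as its lowest cord region, like the decarboxylases, but did not share their order between brain and cord.

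Genes most like each member over the 20 libraries were found by the root mean square difference of log2 FPKM after centring each gene on its mean. Gad1 was closest to Dnm1, the dynamin of synaptic vesicle endocytosis (0.111), RGD1305733 (0.114) and Wscd2 (0.117). Gad2 was closest to Zmat4 (0.145), Nrsn1 (0.184) and the vesicle protein gene Syn2 (0.185). Slc32a1 was closest to Cacna2d2, a calcium channel subunit (0.0845), Dzip1 (0.114) and Sall2 (0.116). Slc17a6 was closest to the Hox gene Hoxd3 (0.410), Irx2 (0.421) and LOC501033 (0.424). Slc17a7 was closest to the dendritic gene Ddn (0.951) and the potassium channel genes Kcnj4 (1.04) and Kcnh3 (1.10). The distances were smaller for Gad1, Gad2 and Slc32a1 than for both glutamate transporters. However, the distance is not scaled to a gene's range, which was widest for Slc17a7 and Slc17a6, so closeness cannot be ranked between members. Hoxd3 and Irx2 had white matter means at the floor of 0.1 FPKM, which sets the size of their difference from the cord.

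Stimulation was examined within each region in 2 against 2 animals. No member passed the threshold in any of the 5 regions, and nor did any gene of the table in regions 1 to 4 (0% called), while 0.0197% of all genes passed in region 5. At an unadjusted p under 0.05, limma gave 828, 215, 522, 341 and 546 of 15210 genes in regions 1 to 5. Among members it gave only Slc17a7 and Gad1, in region 5. A chance rate of 0.05 over 15210 genes gives more than the counts of regions 2 to 5 and nearly that of region 1. An exact permutation test of 2 against 2 animals cannot give a p below 0.333.

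Slc17a7 in region 5 was the largest difference with stimulation among members whose groups did not overlap. It was at 0.977 and 0.729 FPKM in the control animals and at 2.13 and 2.45 FPKM in the stimulated animals, and both stimulated animals were higher. The log2 difference was 1.44 ± 0.21 SE (95% interval 0.84 to 2.03; unadjusted p = 0.00251, adjusted p = 0.615, limma). Of all genes, 18.5% lay higher without overlap in the stimulated animals of region 5. Markers of other cells moved with it: all 7 sensory ganglion markers were higher in both stimulated animals, summing to 51.8 to 76.3 FPKM against 35.4 to 39.5 FPKM, with a median log2 difference of 3.43. The nociceptor channel genes Scn10a and Scn11a were at the floor in both controls and at 1.32 to 2.92 FPKM in the stimulated animals. Schwann cell markers summed to 233 to 236 FPKM against 86.5 to 109 FPKM. None of these lists held a called gene in region 5, and the part of such tissue in the Slc17a7 difference was not tested. The inhibitory members went the other way: Gad1 was at 14.5 and 14.7 FPKM in stimulated and 18.7 and 16.7 FPKM in control animals (log2 difference -0.28 ± 0.10 SE; unadjusted p = 0.0430, adjusted p = 1, limma). Gad2 (-0.24) and Slc32a1 (-0.20) also lay lower without overlap, as did 6.07% of all genes. The glutamate transporters did not rise together. Slc17a8, near the floor, lay lower without overlap (mean 0.149 FPKM in stimulated and 0.212 FPKM in control animals). Slc17a6 overlapped between the groups (mean 25.0 against 25.8 FPKM).

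In region 1, Slc17a7 lay lower in both stimulated animals without passing the test. The values of 255 and 225 FPKM lay below the 317 and 329 FPKM of the controls (log2 difference -0.43 ± 0.17 SE; adjusted p = 0.712, limma), as did 19.5% of all genes in region 1. Gad1, Gad2, Slc32a1 and Slc17a6 overlapped between the groups, with log2 differences of -0.46 to -0.23. Stimulated animal 2 had the lowest Gad1 (27.7 FPKM), Gad2 (22.8 FPKM) and Slc32a1 (8.77 FPKM) of the 4 libraries. Stimulated animal 1 held striatal markers at a sum of 139.9 FPKM against 34.6 to 49.2 FPKM in the other 3 libraries, while its Gad1 and Gad2 (39.4 and 40.9 FPKM) lay within the range of the controls. Cortical excitatory markers also summed to less in the stimulated animals of region 1, at 66.2 to 84.9 FPKM against 94.997 to 97.8 FPKM. Microglia markers summed to 278 to 448 FPKM against 152 to 209 FPKM, and astrocyte markers to 1194 to 1264 FPKM against 788 to 797 FPKM. The astrocyte sum leaned on Gfap, at 680 and 884 FPKM in the stimulated and 353 and 410 FPKM in the control animals. Aqp4 and Gja1 were also higher in both stimulated animals, whereas Aldoc and Aldh1l1 were lowest in stimulated animal 2. No gene of these 3 lists passed the test, and their part in the Slc17a7 difference was not tested.

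In the remaining regions the differences were small or scattered. In region 2, the log2 differences of stimulated minus control ranged from -0.32 for Slc17a6, which did not overlap, to 0.09 for Slc32a1. Of all genes, 6.77% lay lower without overlap. The region 2 library of stimulated animal 2 stood apart in its microglia markers (485 FPKM summed, against 55.1 to 71.3 FPKM in the other 3) and in the astrocyte gene Gfap (678 FPKM against 70.1 to 91.4 FPKM), and it held the lowest Slc17a6, 2.52 FPKM. Without that animal the Slc17a6 difference was -0.18 (adjusted p = 1, limma), and the part of these cells in it was not tested. In region 4, Slc17a6 (0.21), Slc32a1 (0.25) and Gad2 (0.21) lay higher in the stimulated animals without overlap, as did 12.5% of all genes, and Gad1 and Slc17a7 overlapped. In region 3, the groups overlapped for all 6 members, with log2 differences of -0.22 for Gad2, -0.15 for Gad1, -0.10 for Slc17a6 and -0.03 for Slc32a1. The 95% interval for Slc17a7 there ran from -5.70 to 3.11, as its control animals were at 0.974 and 11.8 FPKM.

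**Figure D5:**
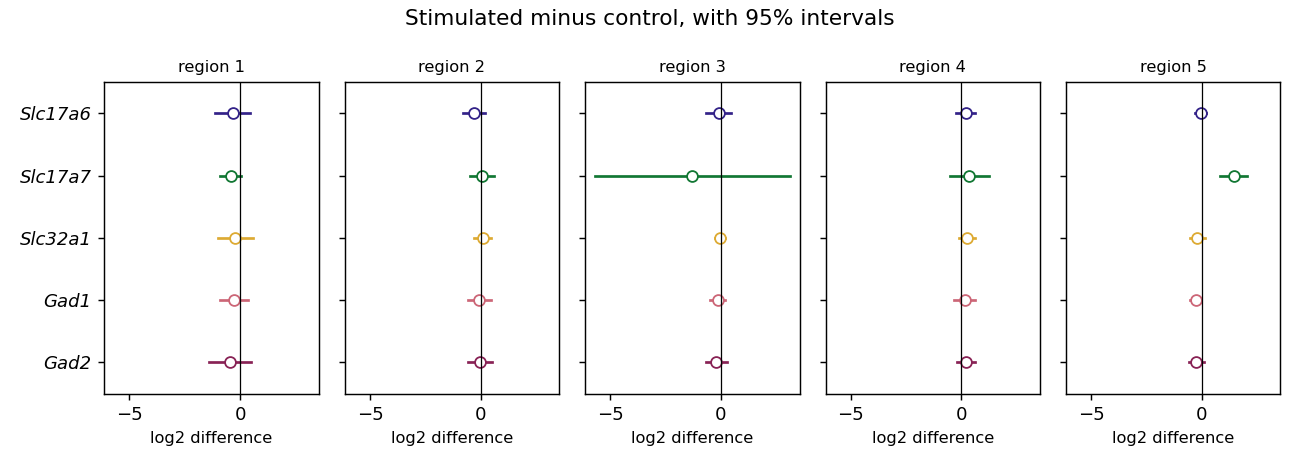
Log2 difference in FPKM of stimulated minus control animals in each region for the 5 members tested (points, limma estimates; lines, 95% intervals; a filled point would mark an adjusted p under 0.05). No point is filled; Slc17a7 in region 5 sits at 1.44 and its interval in region 3 runs from -5.70 to 3.11.

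Whether stimulation acted differently between regions was tested on differences within each animal. No member passed for white matter against cord, region 1 against 2, region 3 against 4, region 4 against 5 or region 3 against 5, where 0%, 0%, 0%, 0.00657% and 0.0131% of all genes passed (limma). At an unadjusted p under 0.05, these 5 comparisons held 512, 505, 653, 453 and 363 of 15210 genes, each fewer than a chance rate of 0.05 gives. For Slc17a7 the stimulation effect in region 1 was lower than in region 2 by -0.51 ± 0.15 SE (adjusted p = 0.881, limma), and that in region 3 lower than in region 5 by -2.73 ± 1.54 SE (adjusted p = 1, limma). The 95% interval of the latter ran from -6.85 to 1.39.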

How the data were processed

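Total RNA was ribosome-depleted, and per the labels and methods the authors aligned reads to Rnor6 with TopHat2 2.1.0, quantified genes with Cufflinks 2.2.1 and deposited FPKM values in which those under 0.1 had been raised to 0.1 (39.7% of all values here, 1 of 120 member values). The table holds no read counts per gene, so no counting interval is given, and library depth was not used here. Groups and animals came from the labels. Members and gene lists were chosen with earlier results of these data known.

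Genes with at least 1 FPKM in at least 1 of 20 libraries were kept (15210 of 30443), log2 transformed at the floor of 0.1 and fitted with limma 3.58.1 (trended eBayes, R 4.3.3). P-values were Benjamini-Hochberg adjusted over all genes, with a threshold of 0.05. Fold changes understate those of genes near the floor. Regions were compared over 20 libraries with 1 mean per region, and stimulation within each region. The 5 libraries of an animal share it, and p-values between regions treat them as independent. Deviations from the region means, taken over stimulated and control animals together, correlated between regions of an animal at -0.03 to 0.59 (mean of 4 animals per pair of regions). Any difference with stimulation that regions share is part of these correlations. P-values between regions rest on the spread of single libraries around their region means, pooled over regions, and not on a test over the 4 animals. Those for stimulation within a region rest on the spread of animals within the stimulated and control groups. Shares and ratios were tested by two-sided exact permutation (Python 3.11.15). Named genes were the 6 members and, for each tested member, the 3 genes with the smallest root mean square difference, plus genes of the fixed lists. Alternatives were scaling, filter, pseudocount, block and left-out animals or libraries. The fits were tested on simulated data. Some genes of the lists are counted but not reported here by name.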

Additional observations from a re-analysis of the deposited data

Results flagged for a closer look

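Slc17a6 in region 4 of stimulated animal 1, at 22.9 FPKM, lay apart from the other 3 libraries of that region (17.6 to 18.3 FPKM), with a gap of 0.878 of the range by Dixon's criterion. It was the only such value in 66 groups examined. Chance alone gives about 1 in 20 groups, so 1 in 66 is no more than chance gives.

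The stimulated animals lay below the controls for Slc17a6 in region 2 and above them in region 4, every animal included. The effects differed by -0.52 on the log2 scale (region 2 minus region 4). For Slc17a7 the stimulated animals lay below the controls in region 1 and above them in region 5, with effects that differed by -1.87 (region 1 minus region 5). Of all genes, 6.77% lay below without overlap in region 2 and 12.5% above in region 4. In region 1, 19.5% lay below and in region 5, 18.5% above. The share of genes that did both in a pair of regions was not counted, and neither difference was tested.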

How the results depend on the processing

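All 5 calls between white matter and cord held under every alternative run, and so did the Slc17a6 call between regions 1 and 2. With 2 animals per group and FPKM without read counts per gene, no counting error was computed for low genes such as Slc17a8 and cord Slc17a7. Tested over animal means the share and ratio differences were 93.7 for Slc17a7, -92.9 for Slc17a6 and -0.72 points for Slc17a8, -0.25 for Gad1 to Gad2 and -2.04 for Slc32a1 to Gad1 and Gad2 (log2), each with p = 0.125, the smallest a sign permutation of 4 animals can give. Leaving out each animal, the log2 ratio of Gad1 to Gad2 differed by -0.30 to -0.22.

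The number of members called between regions 1 and 2 was 2 with libraries centred on the pan-neuronal list and 1 to 2 leaving out each animal, where Slc17a6 kept -1.15 to -0.86. Between regions 3 and 4 it was 3 to 5 leaving out each animal. Between regions 4 and 5 it was 0 with centring, quantile normalization, upper-quartile scaling, no filter, eBayes without trend and differences within animals, and 0 to 2 leaving out each animal. Between regions 3 and 5 it was 4 with centring, quantile or upper-quartile scaling, 1 without trend, 0 without a filter and 0 to 2 leaving out each animal or library. The cause was not tested. Among alternatives chosen after seeing the data, leaving out the region 3 library of control animal 2 gave 2 members called between regions 4 and 5 and 0 between regions 3 and 5.

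Signs turned with centring between regions 4 and 5 for Slc17a6 (0.076), Slc32a1 (0.12), Gad1 (0.045) and Gad2 (0.16). Between regions 1 and 2 they turned for Slc32a1 with quantile normalization (-0.023) and upper-quartile scaling (-0.019) and for Gad1 with the latter (-0.020). With stimulation in region 2 they turned for Slc17a7 (-0.12 quantile, -0.030 upper-quartile) and Slc32a1 (-0.021 and -0.016), and in region 3 for Slc32a1 (0.047 and 0.043). None of these values passed. Leaving out animals or libraries, the range between regions 1 and 2 was -0.049 to 0.18 for Slc17a7, -0.035 to 0.17 for Slc32a1 and -0.026 to 0.12 for Gad1, and between regions 3 and 5 it was -0.48 to 1.46 for Slc17a7. For stimulation it was -0.57 to 0.11 for Slc32a1 in region 1. In region 2 it was -0.017 to 0.20 for Slc32a1, -0.24 to 0.14 for Gad1 and -0.23 to 0.19 for Gad2. In region 3 it was -0.36 to 0.15 for Slc17a6, -3.09 to 0.51 for Slc17a7 and -0.10 to 0.045 for Slc32a1. It was -0.051 to 0.34 for Gad1 in region 4 and -0.11 to 0.0076 for Slc17a6 in region 5. The difference of the Slc17a7 effect between white matter and cord ran from -0.99 to 0.30.

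Same-numbered control and stimulated animals are different animals and shared only a number, with correlations of -0.21, -0.10, -0.11, 0.32 and -0.16 in regions 1 to 5. A fit with this number as a replicate block called 1 member, Slc17a7, for stimulation in region 5 (adjusted p = 0.000295, limma, 443 genes called) and 1, Slc17a7, for the difference of regions 3 and 5, and leaving out each animal the region 5 value was 1.23 to 1.65 with adjusted p from 0.148 to 0.978 (limma). The crossed block, chosen after seeing the data, called 118 genes in region 4. Leaving out animals gave up to 548 called genes for stimulation (region 2, without stimulated animal 1). With the animal as a replicate block for regions, the members called stayed 5, 1, 5, 1 and 2, and genes called between regions 4 and 5 went from 1216 to 1966.

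Scaling moved the median of all genes between white matter and cord from -0.18 to -0.04 (quantile). Genes lower in region 1 than in region 2 numbered 267, and 841 or 931 after quantile or upper-quartile scaling. Between regions 4 and 5, 142 genes were higher and 1074 lower, and 328 and 299 after upper-quartile scaling. Between regions 3 and 5 these were 235 and 422, and 750 and 419.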
